A study of Homo sapiens with 9 samples.

Results

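The ISL1 locus was taken as every region of the ATAC-seq table on chromosome 5 whose centre lay in the ISL1 gene (GRCh38 51383448 to 51394730) or within 300 kb of either end. This rule used no measured value, although the gene was picked with earlier results of these data known, and it gave 25 of 148797 regions, of which 21 of the 119417 with enough counts could be tested. The cells were SK-N-BE(2)c, a human neuroblastoma line that has been grown in culture as an established line. ATAC-seq reads out open chromatin by letting Tn5 transposase insert adapters into accessible DNA. Cells of every group received an antisense oligonucleotide by lipofection at 100 nM and were collected 48 h later. ASO2 and ASO10 target NESPR, a long non-coding RNA, while NCA serves as negative control, so lipofection and an oligonucleotide were common to all groups. Each group had 3 libraries, with totals from 7293565 to 10948569 counts. All came from this line, and no label says whether the 3 libraries of a group came from separate cultures, so p-values measure the spread between these libraries, which may be technical. In bulk libraries, more cells with an open region and a more open region per cell cannot be told apart.

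ISL1 is a LIM-homeodomain transcription factor. It binds DNA through its homeodomain and partner proteins such as LDB1 through its LIM domains. In the embryo it is needed for motor and sensory neurons, sympathetic neurons, the second heart field and pancreatic islets, and in neuroblastoma it belongs to the group of factors that hold the adrenergic, sympathetic-like cell state. Its gene stands in a long gene-poor interval, and genes of this kind are commonly served by distant enhancers. The nearest protein-coding neighbours were PARP8, 537 kb upstream, and ITGA1, 1393 kb downstream. ISL1-DT, a long non-coding RNA gene, is read from the opposite strand and starts 116 bases from the ISL1 start.

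The 250 bases before the ISL1 start are shown because they lie within the most accessible region of the locus, and because they hold the ISL1-DT start: the 3′ part lies between the 2 starts, and the 5′ part lies inside ISL1-DT. The sequence is that of RefSeq (GRCh38.p14, plus strand, chr5:51383198-51383447). Capitals mark matches on either strand to AGATAA and TGATAA (forms of the motif bound by GATA factors), to CAGCTG, an E-box, to the CCAAT box, and to TGACGT, the first part of a cyclic AMP response element, which do not overlap each other here.
ISL1 promoter: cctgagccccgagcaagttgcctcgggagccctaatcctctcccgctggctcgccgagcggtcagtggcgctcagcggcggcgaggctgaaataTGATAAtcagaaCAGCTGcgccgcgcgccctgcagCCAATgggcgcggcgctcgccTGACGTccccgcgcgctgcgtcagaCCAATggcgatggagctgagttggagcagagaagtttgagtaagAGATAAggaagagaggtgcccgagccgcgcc
CCAAT had 2 matches, and the other 4 marked motifs had 1 match each. The homeodomain motif TAATTA had 0 matches. Among 35116 promoter stretches of the same length, 9.17% held AGATAA, 6.66% TGATAA, 13.99% the E-box, 32.0% the CCAAT box, 7.10% the response element and 4.35% the homeodomain motif, on either strand. G and C made up 65.2% of the ISL1 stretch against a median of 58% over all stretches. It held 27 CpG dinucleotides against a median of 11, more than 82.3% of the stretches. The motifs were chosen after the sequence was seen, and a match describes letters only.

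Accessibility around ISL1 was spread unevenly along the locus. The regions fall into 3 parts, with 2 at the gene, 5 in the 5′ flank and 18 in the 3′ flank, and 22 of the 25 overlapped no annotated gene. Levels are given as CPM, which are counts relative to the library total, scaled by the trimmed mean of M-values (TMM), and a level compared between regions is given per kb of region. The region over the ISL1 start (51382776 to 51383924, called the start region here) was the most accessible, with 23.5 CPM per kb over all 9 libraries. This was above 84.3% of the 14563 tested regions within 1 kb of a protein-coding gene end, whose median was 11.9 CPM per kb. Next were a distal region 106 kb downstream of the start (51488746 to 51489553) with 18.1 CPM per kb and a region 197 kb upstream (51185831 to 51186496) with 17.1 CPM per kb. The region 28.7 kb downstream (51411789 to 51412575) had 10.7 CPM per kb and that 189 kb upstream (51194708 to 51195150) had 9.57 CPM per kb. The tested members had a median of 6.77 CPM per kb, close to the 6.32 CPM per kb of all tested regions.

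**Figure D1:**
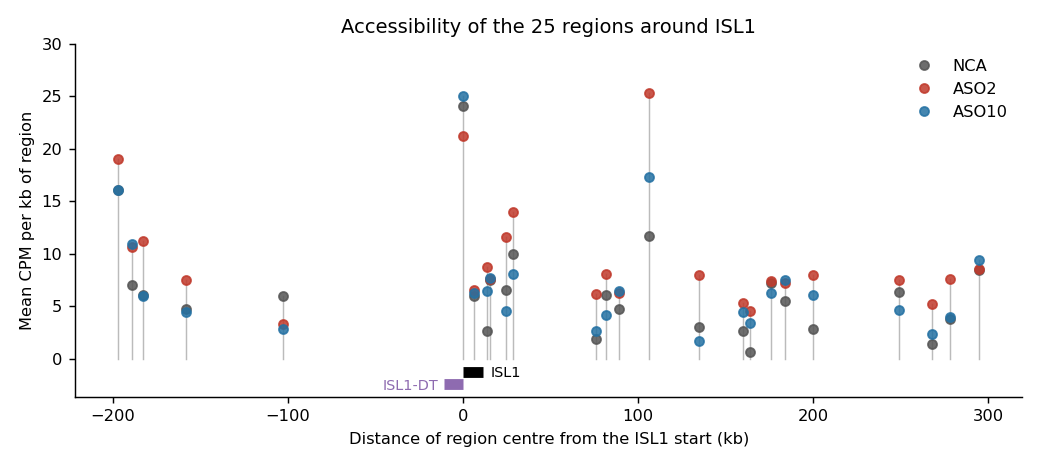
Mean CPM per kb of each of the 25 regions (vertical axis) against the distance of its centre from the ISL1 start (horizontal axis, kb), with points for the means of the 3 libraries of NCA, ASO2 and ASO10 and bars for the ISL1 and ISL1-DT genes. The start region is highest in NCA and ASO10, and the region at +106 kb is highest in ASO2.

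The ISL1 promoter itself showed no call in any comparison. The start region had 26.4, 27.9 and 28.6 CPM in the 3 NCA libraries, 23.3, 27.1 and 22.8 CPM under ASO2, and 28.0, 31.6 and 26.6 CPM under ASO10. The groups overlapped: ASO2 replicate 2 lay inside the NCA range and the other 2 ASO2 libraries below it. The log2 fold change was -0.18 ± 0.13 (SE; 95% interval -0.44 to 0.085, edgeR adjusted p = 0.549) for ASO2 against NCA and 0.058 ± 0.13 (95% interval -0.20 to 0.32, adjusted p = 0.923) for ASO10 against NCA. Between ASO2 and ASO10 it was -0.24 ± 0.13 (95% interval -0.50 to 0.026, adjusted p = 0.413). The intervals thus leave room for a fall of up to 0.44 on the log2 scale under ASO2, and do not reach a change of 1 in either direction. Over all tested regions within 1 kb of a protein-coding gene end the median log2 fold change was -0.054 for ASO2 against NCA. This median was 0.083 for ASO10 against NCA and -0.15 between the ASOs.

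A broad region inside the gene (51388606 to 51390480, 6.1 kb after the start) also passed no test. Its levels were 10.0, 11.9 and 11.8 CPM in NCA, 13.8, 14.8 and 8.35 CPM under ASO2, and 12.9, 9.33 and 13.0 CPM under ASO10. ASO2 replicate 3 lay below every NCA library while the other 2 ASO2 libraries lay above them. The log2 fold changes were 0.11 ± 0.18 for ASO2 and 0.060 ± 0.19 for ASO10 against NCA (SE; edgeR adjusted p = 0.822 and 0.945), and 0.055 ± 0.18 between the ASOs (adjusted p = 0.931). Exon positions were not used here, so the region is placed only as lying within the gene.

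Distal regions on both sides of the gene were higher under ASO2. Of the 21 tested members, 3 were called higher under ASO2 than in NCA and 0 lower. A call means a Benjamini-Hochberg adjusted p under 0.05 over all 119417 tested regions in the quasi-likelihood test of edgeR. Over all tested regions, 4.79% were called higher and 0.808% lower, and 5.6% in either direction. Among regions over 1 kb from a protein-coding gene end, 5.42% were called higher. The 3 called members were 14.3% of those tested. An unadjusted p under 0.05 was found for 7 members, all higher under ASO2. The share of all tested regions under this unadjusted limit was not computed, so that number has no background beside it. The number of calls in this comparison fell to 1 with DESeq2, with loess offsets on abundance, and without NCA replicate 1, ASO2 replicate 1 or ASO2 replicate 2.

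The region 106 kb downstream of the start had the clearest difference. It had 7.73, 9.33 and 11.3 CPM in NCA, 18.0, 23.4 and 19.9 CPM under ASO2, and 16.3, 14.2 and 11.5 CPM under ASO10. Every ASO2 library lay above every NCA and ASO10 library, and every ASO10 library lay above NCA, though ASO10 replicate 3 lay close to NCA replicate 3. It was the only member with all 6 ASO libraries above all NCA libraries. That pattern was found in 3.27% of all tested regions, so 1 of 21 tested members is near the background. The means were 9.47 ± 1.81 CPM in NCA, 20.4 ± 2.75 CPM with ASO2 and 14.0 ± 2.43 CPM with ASO10 (SD, n = 3 per group). For ASO2 against NCA the log2 fold change was 1.11 ± 0.17 (SE; edgeR adjusted p = 2.8e-08). For ASO10 against NCA it was 0.56 ± 0.18, with an unadjusted p of 0.00141 and an edgeR adjusted p of 0.0879, so it was not called. The average of both ASOs was 0.83 ± 0.15 above NCA (edgeR adjusted p = 2.4e-05). The ASO2 call held in all 18 alternative fits, with log2 fold changes from 0.98 to 1.26, and the call for both ASOs in all 17.

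The region 183 kb upstream of the start (51199740 to 51200429) was the second called member by p-value. It had 3.61, 5.04 and 3.97 CPM in NCA, 9.26, 7.40 and 6.51 CPM under ASO2, and 4.81, 4.32 and 3.26 CPM under ASO10. The ASO2 libraries stood above the other 6, whose ranges overlapped. Its log2 fold change was 0.86 ± 0.27 for ASO2 (SE; edgeR adjusted p = 0.0336) and -0.021 ± 0.29 for ASO10 (adjusted p = 0.990) against NCA. The ASO2 call was lost in 6 of 18 alternative fits: DESeq2, loess offsets, and those without NCA replicate 1, NCA replicate 3, ASO2 replicate 1 or ASO2 replicate 2 (adjusted p up to 0.222).

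The third called member lay near the downstream limit, 278 kb from the start (51661474 to 51662220). It had 3.09, 2.40 and 2.95 CPM in NCA, 5.05, 5.79 and 6.15 CPM under ASO2, and 3.87, 2.50 and 2.60 CPM under ASO10. Again the ASO2 libraries stood above the other 6. The log2 fold change was 1.01 ± 0.33 for ASO2 (SE; edgeR adjusted p = 0.0456) and 0.090 ± 0.36 for ASO10 (adjusted p = 0.959) against NCA. The ASO2 call was lost in 11 of 18 alternative fits, including each of the 6 that left out an NCA or ASO2 library (adjusted p up to 0.185), while the log2 fold change stayed between 0.91 and 1.09.

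**Figure D2:**
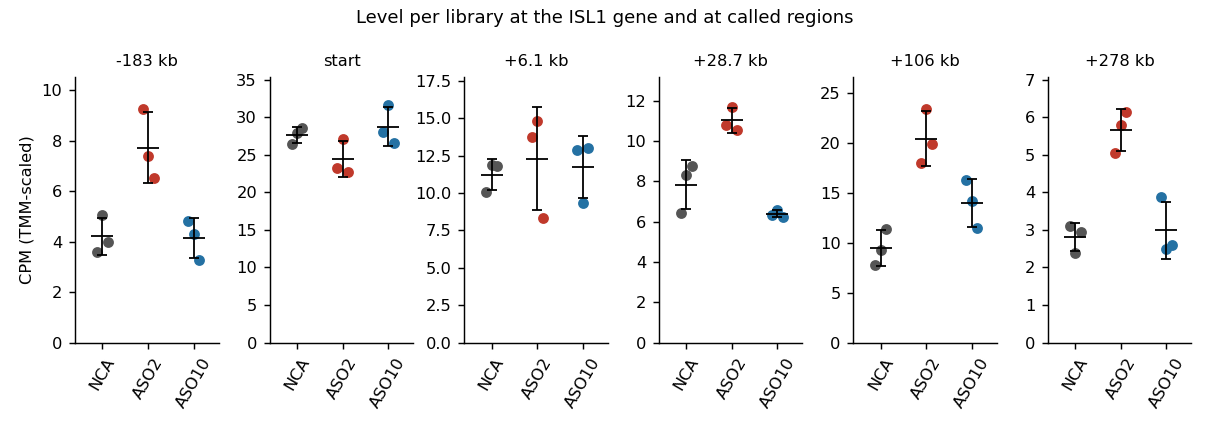
CPM per library (vertical axes, each from 0) for the 2 regions at the ISL1 gene (start and +6.1 kb) and the 4 regions called in any comparison, named by distance from the ISL1 start, with points for libraries and bars for the mean and SD of 3. ASO2 libraries stand above NCA in the 4 called regions, and the groups overlap at the gene.

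ASO10 gave no call within the locus. By edgeR, 0 of 21 tested members were called against NCA, where 1.09% of all tested regions were called, so a count of 0 is near the background. An unadjusted p under 0.05 was found for 3 members, all higher under ASO10: the regions at 106 kb and 200 kb downstream and at 189 kb upstream. No share of all tested regions was computed at this unadjusted limit. DESeq2 and limma-voom also called 0 members. In this comparison DESeq2 gave an adjusted p to only 33754 of the 119417 tested regions, and a member without one could not be called. The region 189 kb upstream had 2.71, 3.91 and 2.72 CPM in NCA, 3.51, 7.73 and 2.94 CPM under ASO2, and 3.99, 5.35 and 5.21 CPM under ASO10. All ASO10 libraries lay above NCA there, while the ASO2 mean rested on replicate 2. Its log2 fold change was 0.64 ± 0.32 for ASO10 (SE; edgeR adjusted p = 0.469) and 0.60 ± 0.32 for ASO2 (adjusted p = 0.334). For the average of both ASOs against NCA, 1 member was called, the region at 106 kb, against 2.99% of all tested regions.

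The direct comparison of the 2 oligonucleotides against the same RNA called 3 members, all higher under ASO2. Over all tested regions 3.23% were called and 2.54% were called higher under ASO2. The region at 28.7 kb downstream had 6.44, 8.32 and 8.74 CPM in NCA, 10.8, 11.7 and 10.6 CPM under ASO2, and 6.33, 6.60 and 6.25 CPM under ASO10. The ASO2 libraries lay above both other groups, and the ASO10 libraries lay within a narrow span at the low end of NCA. The log2 fold change between the ASOs was 0.78 ± 0.22 (SE; edgeR adjusted p = 0.0166). Against NCA neither ASO was called there (0.49 ± 0.21 for ASO2, adjusted p = 0.191; -0.29 ± 0.23 for ASO10, adjusted p = 0.701). At 106 kb the difference between the ASOs was 0.55 ± 0.16 (edgeR adjusted p = 0.0296), and at -183 kb it was 0.88 ± 0.27 (edgeR adjusted p = 0.0412). Leaving out any 1 NCA library kept the count at 3. No member was called (a count of 0) without ASO2 replicate 2, without ASO10 replicate 2 or without ASO10 replicate 3. Without ASO2 replicate 1, ASO2 replicate 3 or ASO10 replicate 1, 1 was called, as with DESeq2. Over all 18 alternative fits the log2 fold change between the ASOs ran from 0.71 to 0.82 at 28.7 kb, from 0.42 to 0.67 at 106 kb and from 0.75 to 1.01 at -183 kb. The call was lost in 10 of the 18 fits at -183 kb, and in 5 each at 28.7 kb and 106 kb. At 278 kb, the difference between the ASOs was 0.92 ± 0.33 and was not called (edgeR adjusted p = 0.104).

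**Figure D3:**
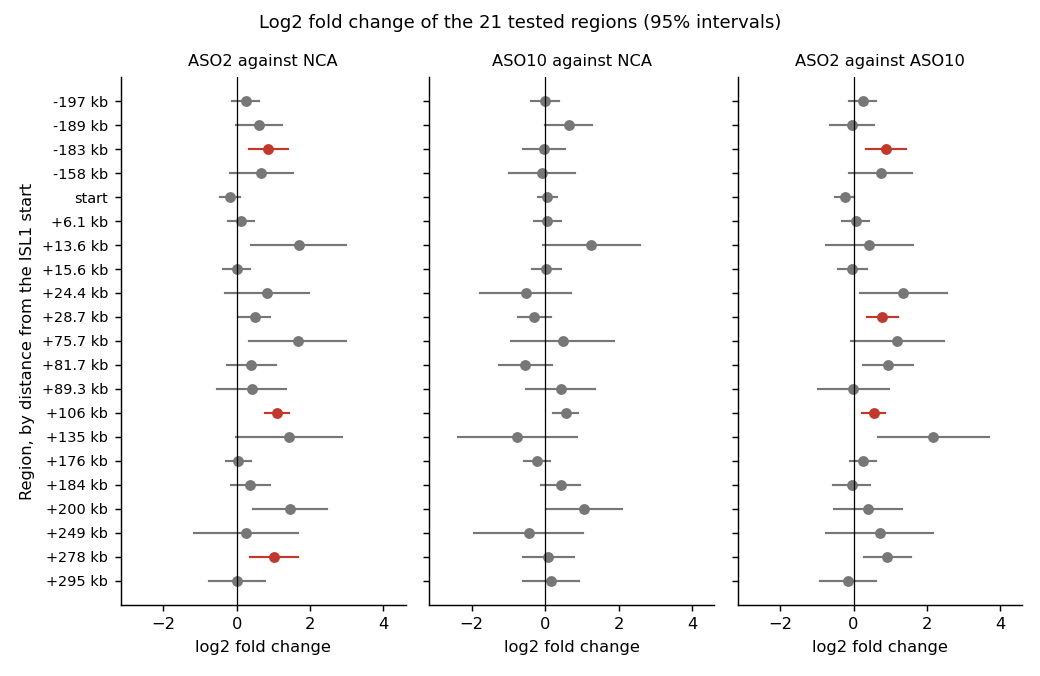
Log2 fold change with its 95% interval (horizontal axes) for the 21 tested regions, ordered by distance from the ISL1 start (vertical axis), in ASO2 against NCA, ASO10 against NCA and ASO2 against ASO10; called regions (edgeR adjusted p under 0.05) are red. Most ASO2 values lie right of 0, while the start region and the regions at +6.1, +15.6 and +176 kb lie near it.

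The other members passed no test against NCA. Over all tested members, 19 of the 21 log2 fold changes against NCA were above 0 under ASO2 and 13 under ASO10. Among all tested regions over 1 kb from a protein-coding gene end, 49.2% were above 0 under ASO2 and 47.6% under ASO10. The medians of the members were 0.49 and 0.058, beside -0.024 and -0.0067 over all tested regions. All 3 ASO2 libraries lay above all NCA libraries in 9 tested members (42.9%, against 11.9% of all tested regions) and wholly below in 0 (against 8.57%). The 3 ASO10 libraries lay above NCA in 2 tested members (9.52%, against 8.51%). ASO2 lay wholly above ASO10 in 8 (38.1%, against 11%). These counts, medians and shares cover members that passed the filter on low counts, and a region open under ASO2 alone could pass it. In the fits to only the groups compared, 16 members passed with ASO10 and NCA, against 20 with ASO2 and NCA. Some members were thus tested through their ASO2 counts. The count above 0, the median and the shares for ASO2 are therefore descriptions and no support for a difference. Of the 25 members, 13 had at least 10 counts in every library. The largest uncalled fold changes came from thin regions, such as that at 13.6 kb (51396913 to 51397142), where no NCA library had more than 7 counts. It had 0.902, 0.504 and 0.454 CPM in NCA, 1.26, 2.36 and 2.39 CPM under ASO2, and 1.88, 2.05 and 0.521 CPM under ASO10 (log2 fold change for ASO2 1.69 ± 0.66 SE, edgeR adjusted p = 0.121). The region at 200 kb (51583026 to 51583390) had a mean of 1.04 ± 0.542 CPM in NCA against 2.92 ± 0.623 CPM with ASO2 and 2.21 ± 1.07 CPM with ASO10 (SD, n = 3 per group) and was not called (edgeR adjusted p = 0.0706 and 0.447). In simulated data, 90.2% of the 51 changed regions above 8 CPM were recovered at a log2 change of 1, against 28% of all 200 changed regions. The real comparison of ASO2 with NCA called 6687 regions, far more than were changed in the simulation. The same limit on adjusted p therefore meant a stricter limit on unadjusted p in the simulation, and these recoveries do not carry over directly. Recovery of thin regions alone was not measured.

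Some well-covered distal regions had close means in the 3 groups, and none of them was called. The region at 15.6 kb (51398386 to 51399700) had 9.89 ± 1.54 CPM in NCA, 10.0 ± 3.45 CPM with ASO2 and 10.1 ± 1.33 CPM with ASO10 (SD, n = 3 per group). At 176 kb (51558375 to 51560148) the means were 12.8 ± 1.61, 13.2 ± 1.35 and 11.1 ± 1.79 CPM in the same order. The region 197 kb upstream, the outermost member on that side, had 10.7 ± 1.87, 12.7 ± 1.15 and 10.7 ± 1.51 CPM, and the outermost downstream member, at 295 kb, had 2.86 ± 1.05, 2.89 ± 0.739 and 3.20 ± 1.01 CPM. Just beyond the limits, the nearest tested regions lay 324 kb upstream and 417 kb downstream of the gene, with means of 1.25, 2.07 and 1.36 CPM and of 1.81, 2.41 and 1.51 CPM in NCA, ASO2 and ASO10. The 4 untested members did not exceed 25 counts in any library.

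Summed over all 25 members, untested members included, the level was 115, 124 and 129 CPM in NCA, 154, 169 and 152 CPM under ASO2, and 138, 129 and 124 CPM under ASO10. The ASO2 libraries lay above all others, and ASO10 overlapped NCA. The ratio of group means was 1.29 for ASO2 and 1.07 for ASO10 to NCA. The difference lay in the flanks: the 3′ flank had 62.2 ± 4.21 CPM in NCA and 92.5 ± 3.28 CPM under ASO2, and the 5′ flank 21.3 ± 3.21 and 29.1 ± 3.64 CPM (SD, n = 3 each). At the gene the sum was 38.9 ± 2.10 CPM in NCA and 36.7 ± 5.44 CPM under ASO2. The start region therefore made up 22.6% of the locus in NCA, 22.0% under ASO10 and 15.4% under ASO2. These sums are descriptions with no test.

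**Figure D4:**
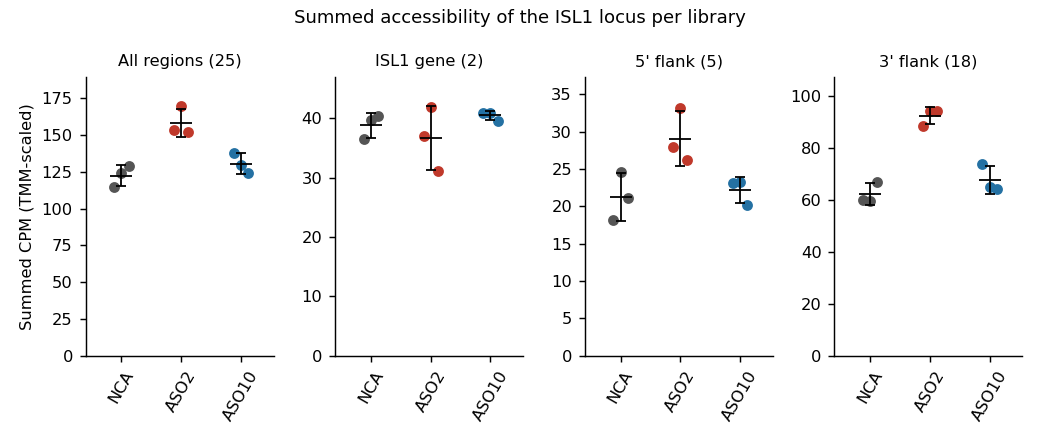
Summed CPM per library (vertical axes, each from 0) for all 25 regions, the 2 at the ISL1 gene, the 5 in the 5′ flank and the 18 in the 3′ flank, with points for libraries and bars for the mean and SD of 3. ASO2 stands apart in both flanks and overlaps NCA at the gene.

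Counts relative to the start region of the same library need no scaling between libraries. At 106 kb there were 29.3, 33.5 and 39.7 counts per 100 counts in the start region in NCA, 77.1, 86.2 and 87.5 under ASO2, and 58.2, 45.0 and 43.1 under ASO10. No group overlapped another. At 28.7 kb the means were 28.3 ± 3.38 in NCA, 45.3 ± 1.90 with ASO2 and 22.3 ± 1.35 with ASO10 (SD, n = 3 per group). At -183 kb they were 15.2 ± 2.50, 31.9 ± 6.85 and 14.4 ± 2.52, and at 278 kb 10.2 ± 1.56, 23.3 ± 3.18 and 10.5 ± 3.01. Such a ratio shows unequal change of the 2 regions and not which of them changed.

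**Figure D5:**
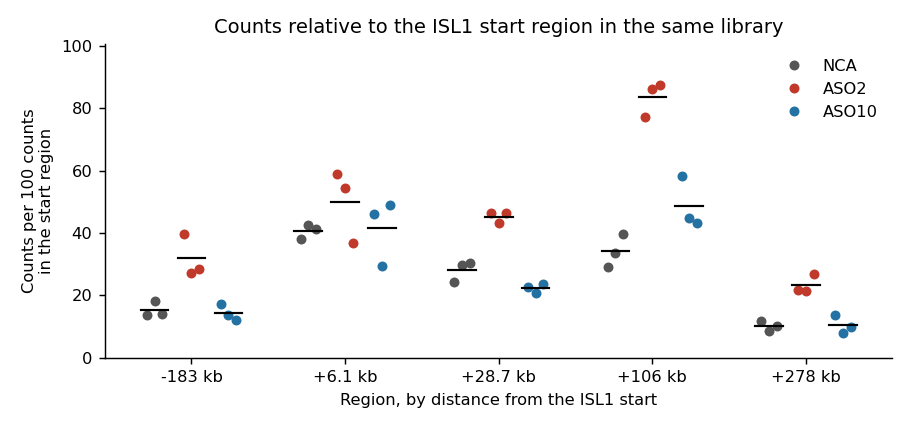
Counts per 100 counts in the start region of the same library (vertical axis) for 5 regions named by distance from the ISL1 start (horizontal axis), with points for libraries and lines for group means. At +106 kb the ASO2 libraries lie between 77.1 and 87.5 and the NCA libraries between 29.3 and 39.7.

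Sums under ASO2 were also above NCA around many other genes with few neighbours. Windows drawn in the same way around 18888 protein-coding genes, each with at least 10 regions, had a median ASO2 to NCA ratio of 0.986, and 98.9% lay below ISL1. Among the 225 windows that hold only 1 protein-coding gene, as the ISL1 window does, the median was 1.11 and 76.4% lay below ISL1. For ASO10 the medians were 1.04 and 1.00, and 61.6% and 71.6% lay below ISL1. Regions over 100 kb from any protein-coding gene end had a median log2 fold change of 0.056 under ASO2, against -0.054 within 1 kb of such an end. Windows overlap and share libraries, so these shares are descriptions.

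A list of other factors of the adrenergic state held 18 genes, among them HAND2, GATA3 and TBX2, which act with ISL1 in the regulatory circuit of adrenergic neuroblastoma. Of 227 tested regions nearest to these genes and within 100 kb, 12 were called higher and 2 lower under ASO2 (6.17%, against 5.6% of all tested regions), and 2 higher and 2 lower under ASO10 (1.76%, against 1.09%). Between the ASOs, 10 were called higher and 3 lower under ASO2 (5.73%, against 3.23%). The median log2 fold change was 0.00078 under ASO2 and 0.044 under ASO10. The window sum around HAND2 had an ASO2 to NCA ratio of 1.08, that around GATA3 1.01 and that around TBX2 0.981. The highest ratios on the list were found around DACH1 (1.42), a transcription cofactor, SATB1 (1.31), a chromatin organizer, MEIS2 (1.21) and EYA1 (1.18). The lowest were found around HAND1 (0.913) and SOX11 (0.932). DACH1 had 4 of its 16 regions called higher under ASO2, and EYA1 had 4 of 27 called higher and 2 lower.

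LIM-homeodomain relatives and cofactors of ISL1 formed a second list of 21 genes with 159 regions. Under ASO2, 9 regions were called higher and 0 lower (5.66%, against 5.6% of all tested regions), so the share called was near the background. Under ASO10, edgeR called 0 in either direction (against 1.09%), and 24 had an unadjusted p under 0.05, a limit at which no share of all tested regions was computed. The median log2 fold change was -0.0050 under ASO2 and 0.035 under ASO10. Calls under ASO2 lay near LDB2, a LIM-domain-binding cofactor (3 of 17 regions), LMO4, a LIM-only protein (2 of 12), LMX1B (2 of 13), LHX4 and SSBP2. The window ratio of ASO2 to NCA was 1.34 for LDB2, 1.28 for LMO4, 1.01 for LDB1 and 1.02 for ISL2, the closest relative of ISL1.

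The labels give a neuroblastoma line and no cell state. Genes of the adrenergic and mesenchymal states were looked up by their gene-end regions, with levels per kb of region. A tested region within 1 kb of a gene end was found for 16 of 18 adrenergic factors, all but EYA1 and KLF7, with a median of 12.3 CPM per kb and a range from 4.15 (SATB1) to 20.9 (KLF13). It was found for 10 of 15 genes of the mesenchymal state, with a median of 11.6 CPM per kb and a range from 6.53 (YAP1) to 21.1 (FOSL2), and not for PRRX1, RUNX1, RUNX2, CD44 or WWTR1. The levels of the 2 lists thus overlapped: TWIST1 (15.0 CPM per kb) and SNAI2 (13.0) of the mesenchymal list lay above the adrenergic median, and INSM1 (4.56) and GATA3 (9.19) of the adrenergic list below the mesenchymal one. Regions nearest to mesenchymal genes had 1 call higher and 2 lower under ASO2 and 1 higher and 0 lower under ASO10, among 123 (2.44% against 5.6% of all tested regions, and 0.813% against 1.09%).

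The genes whose gene-end level was most like that of ISL1 across the 9 libraries were CAMK2D (Pearson r = 0.955), PCSK7 and RNF214 (0.944 for both, with the same values in every library), CCDC88C (0.938) and C1QL4 (0.927). They came first among 10375 genes with a mean of at least 10 CPM, where the 99th percentile of r was 0.832. The points share the libraries and their scaling, and each gene had its ASO2 mean below its NCA mean. For CAMK2D, a calcium-dependent protein kinase, the means were 56.3 CPM in NCA, 54.2 CPM under ASO2 and 57.9 CPM under ASO10.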

How the data were processed

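The authors deposited raw counts, as whole numbers, for 1 shared set of regions in 9 libraries. The submitters' processing notes name Bowtie2 2.2.6, SAMtools, MACS2 2.1.2, FastQC and DESeq2 1.42.0 and the builds hg38 and GRCh38. How reads were filtered, shifted for Tn5 and counted, and whether regions were called per library or on pooled reads, is not given in the sources used here, so a region called from 1 group can favour that group. Region coordinates are as in the deposited names, which do not say whether they count from 0 or 1. Gene positions and promoter sequence are RefSeq's for GRCh38.p14.

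The members and gene lists were chosen with earlier results of these data known. Regions were filtered with filterByExpr by group, scaled by TMM and fitted over all 9 libraries with edgeR 4.0.16 (R 4.3.3; robust quasi-likelihood, a term per group). The SE is the log2 fold change divided by the square root of F, and 95% intervals are 1.96 SE on either side. Alternatives were DESeq2, limma-voom (limma 3.58.1), other scalings (RLE factors, library totals, loess offsets of span 0.3), other filters (none, or 10 counts in each library), the replicate number as a block, fits to just the groups compared, windows of 100 and 500 kb, and leaving out each library. Regions named with values were those at the gene, called in any comparison, among the 5 densest, separated in all 6 ASO libraries with p under 0.05, lowest in p, or outermost. Other members, the motifs and the windows around other genes were chosen after their values were seen. Simulated counts for 119417 regions were used to test the script. No library was a copy of another in its group: chi-square over degrees of freedom was 2.93 to 3.65 between replicates. Libraries of different groups were not compared in this way. Tables were made with pandas 2.3.3 and figures with matplotlib 3.10.9 in Python 3.11.15.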

Additional observations from a re-analysis of the deposited data

Results flagged for a closer look

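In 3 regions of the locus ASO2 and ASO10, which target the same RNA, differed in the direct edgeR test. Over all tested regions 3.23% were called in this test, and 2.54% were called higher under ASO2. The log2 fold change of ASO2 over ASO10 was 0.88 at -183 kb (edgeR adjusted p = 0.0412), 0.78 at 28.7 kb (adjusted p = 0.0166) and 0.55 at 106 kb (adjusted p = 0.0296). In each region, the 3 ASO2 libraries lay above the 3 ASO10 libraries, a pattern found in 11% of all tested regions. The 3 regions were picked by the test on these same libraries, so this separation is no further support. The calls depended on the fit: that at -183 kb was lost in 10 of 18 alternatives, and those at 28.7 kb and 106 kb in 5 of 18 each. At 28.7 kb the ASO10 mean lay below NCA and the ASO2 mean above it, at 106 kb both lay above NCA, and at -183 kb ASO10 and NCA overlapped.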

How the results depend on the processing

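Of 364 pairs of a result with an alternative, over 21 results, 305 kept direction and call, or moved by at most 1.5 times (counts, 3 to 2 included) or by less than 1 SD (levels). Where a value changed, the cause was not tested. The number of members called under ASO2 against NCA, 3, was 1 with DESeq2, 1 with loess offsets, and 1 in the window of 100 kb, which holds fewer regions by construction. Between ASO2 and ASO10, 3 became 1 with DESeq2. Leaving out each of the 9 libraries in turn, counts ran from 1 to 3 for ASO2 against NCA, 0 to 3 between the ASOs, 0 to 0 for ASO10 and 1 to 1 for both ASOs. The log2 ratio of the locus level to NCA stayed within the spread between libraries under every alternative run, from 0.32 to 0.41 for ASO2 and from 0.048 to 0.13 for ASO10. The loess value uses the 21 tested members only. Some uncalled values at the gene changed sign. The start region under ASO10 was -0.056 with loess offsets, and without a library it ran from -0.012 to 0.11. Without a library, the region at 6.1 kb ran from -0.054 to 0.34 under ASO2, from -0.022 to 0.21 under ASO10 and from -0.12 to 0.29 between the ASOs. The replicate numbers did not pair the libraries: deviations of same-numbered libraries correlated at -0.036 to 0.013, and 0 of 9 libraries correlated best with their own number. With a replicate block the counts were 3, 0, 1 and 3 in the order ASO2, ASO10, both ASOs and ASO2 against ASO10. The fit to only the groups compared was not run for the average of both ASOs, which uses all groups.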
